A study of Mus musculus with 4 samples.

Results

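The genes described here make, break down, bind and sense retinoic acid: the degrading enzymes Cyp26a1 and Cyp26b1, the synthesizing enzymes Aldh1a1, Aldh1a2 and Aldh1a3, the receptors Rara, Rarb and Rarg, and the binding proteins Crabp1 and Crabp2. They were chosen by name, with earlier results of these data known. They were found through the RefSeq accession of each probe: 9 of the 10 listed genes had 13 probes, among 22911 named genes with 32994 probes in all. Crabp2 was not analysed here, because no probe matched it. Of the 9 genes, 6 were well above background on all 4 arrays (Cyp26b1, Aldh1a1, Aldh1a3, Rara, Rarg and Crabp1), Rarb on 3, and Cyp26a1 and Aldh1a2 on none. Of all 22911 named genes, 14003 were well above background on all 4 arrays, 1930 on some and 6978 on none. "Well above background" is the scanner software's own mark for a spot.

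The cells were MC3T3-E1, a mouse line of osteoblast precursors derived from calvaria, and each of 4 groups was measured on 1 Agilent one-colour array. Besides the Control, 1 group received Miglustat (50 µM), 1 received D-PDMP (10 µM) and 1 received D-PPMP (1.0 µM). The inhibitors were applied for 4 days, after which the cells were replated and cultured for 24 h; whether the control cells received a vehicle is not given in the sources used here. The compounds are inhibitors of glucosylceramide synthase (GCS), which adds glucose to ceramide. Miglustat is an iminosugar, whereas D-PDMP and D-PPMP are ceramide analogues with the same morpholine ring that differ in the length of their fatty acyl chain. Because the doses differ, the values of the compounds are set side by side. Where the order or grouping of arrays is described, no difference between compounds is read as an effect of their type. Since no group was replicated, no test was made, and 4 arrays limit how precisely any difference is known. Where 4 signals are listed, they stand in the order Control, Miglustat, D-PDMP, D-PPMP, and where 3 log2 ratios are listed, they are those of the inhibitors to Control in that order. All arrays lay on 1 slide, so position on the slide and group cannot be told apart.

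As background, retinoic acid is made from retinol in a reversible step to retinaldehyde and an irreversible step by the Aldh1a dehydrogenases, and is cleared by the Cyp26 hydroxylases. Crabp proteins carry it in the cytosol. In the nucleus it binds RAR receptors, which pair with RXR partners on DNA repeats near target genes, and Cyp26a1 and Rarb are themselves well-known targets. Retinoic acid is known to influence the differentiation of osteoblasts.

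The DNA element through which RARs act is shown here because 2 of the genes carry it next to their start. The scan looked on both strands for 2 copies of a half-site in the same orientation with a spacer of 5 bases (DR5) or 2 bases (DR2). The half-site was AGGTCA, and equally allowed were the forms GGGTCA and, with other central letters, AGTTCA as well as the form GGTTCA. RefSeq promoters of GRCm38.p6, 300 bases each, were given for 8 of the listed genes in 13 windows. A DR5 repeat was found in 2 of these 13 windows, those of Rarb and Cyp26a1, and in 32 of all 32851 windows (0.0974%). No DR2 repeat was found in the 13 windows, against 88 of all (0.268%), so no DR5 repeat overlapped a DR2 repeat there. The 2 stretches, 30 bases each, with the repeat in capitals, are given 5′ to 3′ along the gene. Rarb lies at chr14:16575506-16575535, minus strand, and Cyp26a1 at chr19:37697770-37697799, plus strand.
Rarb: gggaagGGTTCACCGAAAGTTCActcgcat
Cyp26a1: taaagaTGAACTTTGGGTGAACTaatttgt
The Rarb repeat reads along the gene and covers bases 53 to 37 before the start. The Cyp26a1 repeat matches on the opposite strand and covers bases 32 to 16 before the start. A match describes the letters in a window and is not evidence of binding. On these arrays both genes were near or below the limit of detection, as given below.

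Cyp26b1, a hydroxylase that degrades retinoic acid, was higher with Miglustat. Its processed signal, the scanner software's intensity, was 4393 on the Miglustat array, against 2081 in Control, 2175 for D-PDMP, and 1957 for D-PPMP. The Miglustat array stood alone and the other 3 lay close together. After scaling each array to its 75th percentile, the log2 ratio to Control was 1.01 with Miglustat, a 2.02-fold difference, with an error of 0.204 from the scanner software's error model. That error covers a single hybridisation and not differences between cultures. With D-PDMP the log2 ratio was 0.01 and with D-PPMP -0.14, both within the same error of 0. The Miglustat value stands just past the 2-fold line and stayed past it in each of 8 alternatives, at 1.01 to 1.05. Cyp26b1 had 1 probe with 1 spot, so the alternatives for probes and outlier spots could hardly move this value. The authors' values are the same processing, rounded. Among 14171 genes measured on both arrays it was the 30th highest.

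Cyp26a1, the paralogue that is usually the most strongly retinoic acid-inducible of the family, was not well above background on any array. Its signals were 1.12, 1.07, 2.06 and 1.07. The lowest signal that the software marked well above background was between 4.61 and 4.83, depending on the array. No ratio is given for Cyp26a1, and the same holds for Cyp26c1, the remaining member of the family, which was also not well above background on any array.

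**Figure D1:**
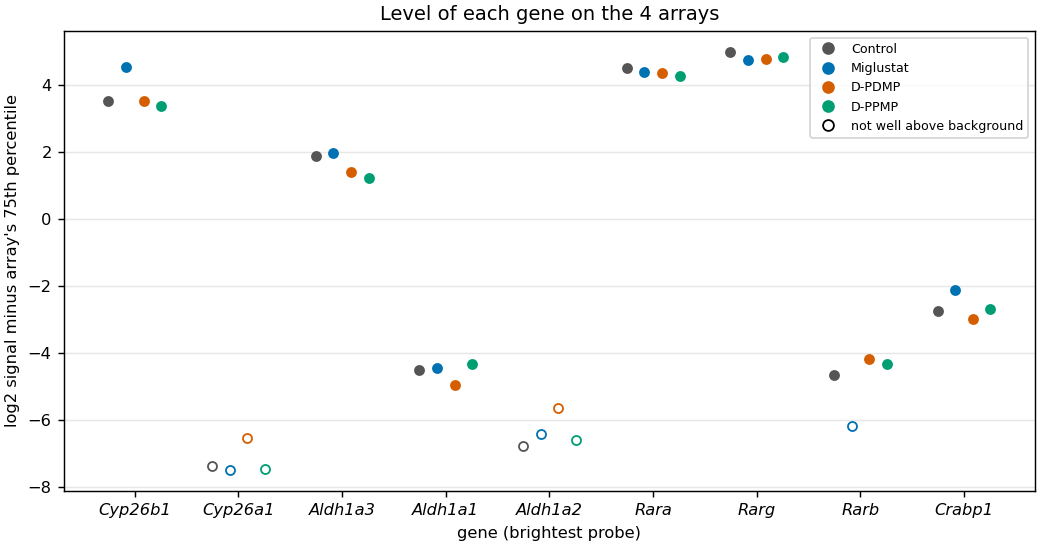
Level of each gene on the 4 arrays, as log2 of the processed signal of its brightest probe minus the array's 75th percentile; open circles were not well above background. Each gene is to be read across its own 4 points, since levels of different probes are not comparable. Cyp26b1 and Crabp1 have their highest point with Miglustat, and Aldh1a3 its 2 lowest with D-PDMP and D-PPMP.

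Of the synthesizing enzymes, Aldh1a3 (retinaldehyde dehydrogenase 3) was lower with both ceramide analogues. Its signals were 676, 740, 496 and 443. Control and Miglustat formed the higher pair, and the other arrays the lower pair. The log2 ratio was -0.50 with D-PDMP (1.42-fold lower) and -0.66 with D-PPMP (1.58-fold lower), each with an error of 0.204, and 0.07 with Miglustat. The negative ratios kept their signs in the 8 alternatives, at -0.52 to -0.46 with D-PDMP and -0.66 to -0.61 with D-PPMP. Aldh1a3, too, had 1 probe with 1 spot, so the alternatives for probes and outlier spots could hardly move these values. The D-PPMP value was the 120th lowest of 14200 measured genes and the D-PDMP value the 251st lowest of 14154. Neither reached 2-fold.

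Aldh1a1, retinaldehyde dehydrogenase 1, was dim but well above background on all arrays. Its signals were 8.11, 8.81, 6.16 and 9.34. The lowest was D-PDMP, at a log2 ratio of -0.45 with an error of 0.356, and -0.10 under normexp background correction. The ratios with Miglustat, 0.06, and D-PPMP, 0.16, lay within their errors of 0.315 and 0.312, and their signs turned under quantile, cyclic loess and normexp processing. Aldh1a2, the main embryonic retinaldehyde dehydrogenase, gave signals of 1.68, 2.25, 3.80 and 1.97 and was not well above background on any.

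The receptors Rara and Rarg were present on all arrays and differed little. The brighter Rara probe had signals of 4092, 3986, 3875 and 3631, and the other 1423, 1424, 1458 and 1454. Its log2 ratios to Control were -0.10, -0.13 and -0.22 on the brighter probe and -0.06, -0.02 and -0.02 on the other. The D-PPMP value of the brighter probe, past the error of 0.204, was thus not matched by the other probe. Rarg, with 1 probe, had signals of 5725, 5125, 5152 and 5354, so that Control was the highest array. Its ratios were -0.22, -0.21 and -0.14, the first 2 at about the size of the error. In the 8 alternatives the Rara and Rarg ratios stayed below 0, but those for probes and outlier spots could hardly move Rarg, whose probe had 1 spot.

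Rarb, the receptor whose promoter holds the DR5 repeat shown above, was barely detected. Its brightest probe had signals of 7.32, 2.65, 10.4 and 9.40. Miglustat was the lowest array and the only one where the probe was not well above background. Control was at least 1.66-fold above it, taking the lowest well-above-background signal of the Miglustat array as the limit, since the measured 2.65 lies below that limit. With D-PDMP the log2 ratio was 0.46 with an error of 0.335, and 0.01 under normexp correction. With D-PPMP it was 0.31 with an error of 0.342, and its sign turned under normexp. The other Rarb probes did not repeat this order. One was not well above background on any array. The other was well above background only with D-PPMP, with a bound of 1.20-fold above Control. That bound, a log2 value of 0.27, lay within the error of 0.746.

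**Figure D2:**
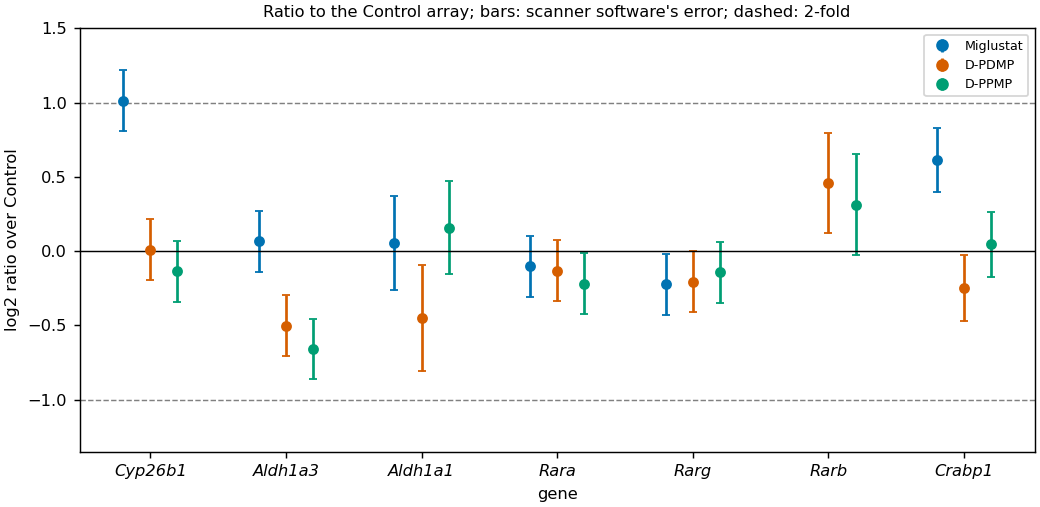
Log2 ratio of each gene to the Control array for the 3 inhibitors; bars are the error from the scanner software's model, and dashed lines mark 2-fold. Points are drawn where the gene was well above background on both arrays, which leaves out Rarb with Miglustat and both Cyp26a1 and Aldh1a2. Cyp26b1 with Miglustat, at 1.01, is the point past a dashed line, and Aldh1a3 lies below 0 with D-PDMP and D-PPMP.

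Crabp1, which binds retinoic acid in the cytosol, gave the best view of measuring error, because its brighter probe was printed as 10 spots on each array. The spots ranged from 23.7 to 30.2 in Control with a median of 27.6. With Miglustat they ranged from 39.6 to 49.3 with a median of 44.2. With D-PDMP they ranged from 22.5 to 26.1 (median 23.7), and with D-PPMP the 9 spots used ranged from 25.6 to 32.7 (median 29.8). The software marked the remaining D-PPMP spot, at 35.1, as an outlier. All Miglustat spots lay above all spots of the other arrays, while Control overlapped both D-PDMP and D-PPMP. Spots of 1 array share the same RNA and do not stand for cultures.

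The log2 ratio of Crabp1 to Control was 0.61 with Miglustat (1.53-fold higher), where the SD of log2 spot signals was 0.112 in Control and 0.104 with Miglustat. It was -0.25 with D-PDMP and 0.04 with D-PPMP, the latter with a sign that turned under 4 alternatives. Under normexp correction, whose offset shrinks ratios of dim probes, the Miglustat value was 0.19. The other Crabp1 probe, not well above background on any array, had signals of 4.81, 4.76, 2.89 and 3.16, and did not show a higher Miglustat array. Averaged over both probes the Miglustat ratio was 0.27.

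**Figure D3:**
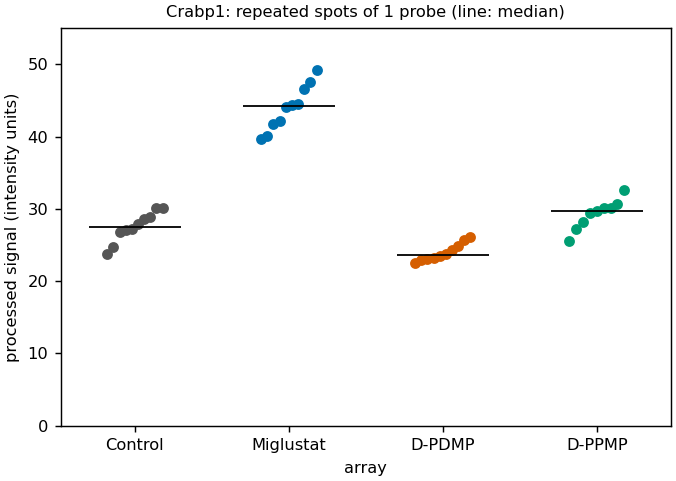
Processed signal of each spot of the Crabp1 probe printed repeatedly on each array, with a line at the median; the D-PPMP spot marked as an outlier is not drawn. The Miglustat spots, at 39.6 to 49.3, lie above all drawn spots of the other arrays, which reach 32.7.

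Counted over the genes, 1 of 6 measured with Miglustat was at least 2-fold from Control (Cyp26b1), where 0.388% of all measured genes were. With D-PDMP it was 0 of 7, against 0.325% of all genes, and with D-PPMP 0 of 7, against 0.507%. At 1.5-fold, Cyp26b1 and Crabp1 counted with Miglustat, 2 of 6 against 2.68% of all genes. None of 7 counted with D-PDMP (2.54% of all) and 1 of 7, Aldh1a3, with D-PPMP (3.44%). Because the genes were chosen with earlier results of these data known, these counts describe the group and are not evidence of an excess. The median log2 ratios were 0.06, -0.21 and -0.14, beside -0.02, 0.00 and -0.01 for all measured genes. The Miglustat median turned to -0.01 at the lowest of the alternatives, while the other 2 stayed below 0. The 3 comparisons share the Control array, so a deviation of that array would enter all of them.

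**Figure D4:**
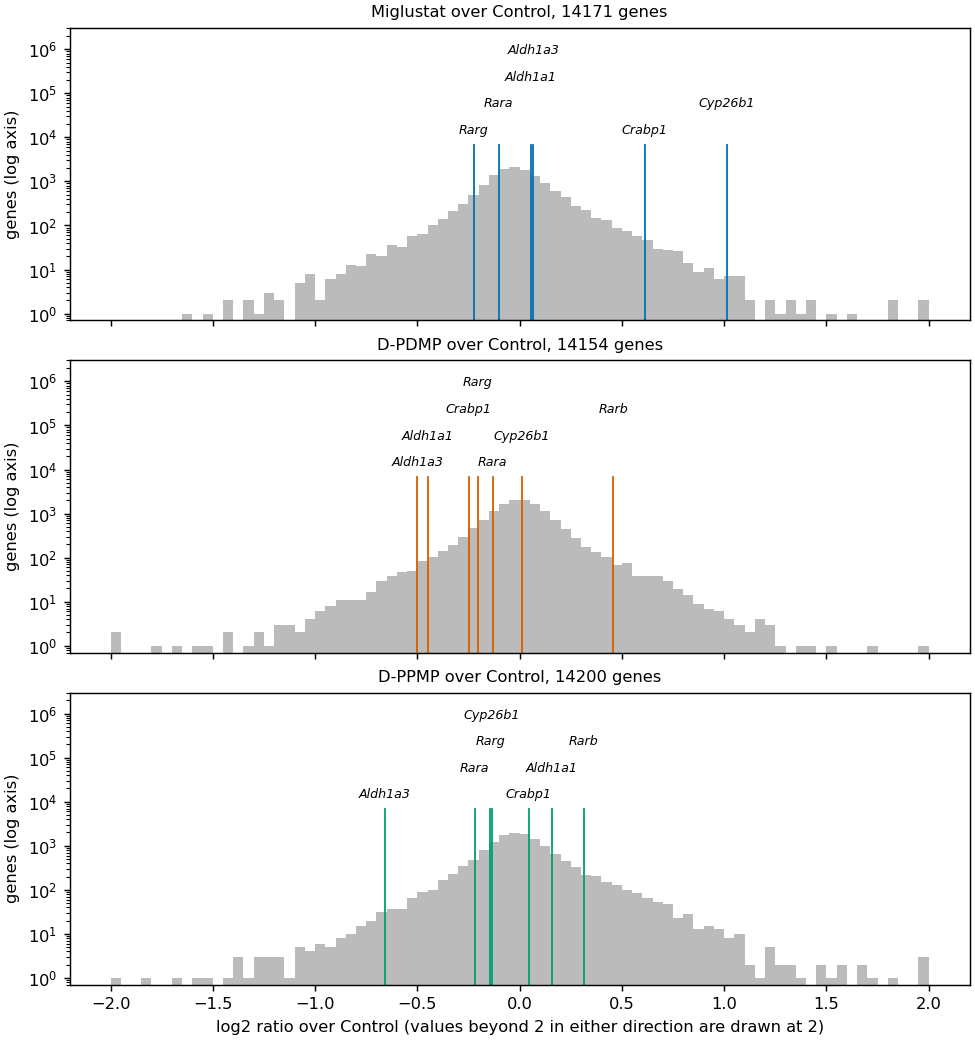
Number of genes (log axis) by log2 ratio to Control, 1 panel per inhibitor, over genes well above background on both arrays, with a line at each gene of the group; ratios beyond 2 in size are drawn at 2. Cyp26b1 stands in the upper tail with Miglustat and near 0 with the other inhibitors, and Aldh1a3 in the lower tail with D-PPMP at -0.66.

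The neighbouring steps of the pathway were read from lists of other genes. Of 15 enzymes that convert retinol and retinaldehyde, 13 were measured and none was 2-fold from Control with any inhibitor. Above Control were 7, 6 and 4 of the 13, beside 6313 of 14171, 7025 of 14154 and 6888 of 14200 of all measured genes. The median log2 ratios were 0.01, 0.00 and -0.02, the sign for Miglustat turning under normexp and where probes were averaged. The most distant were Rdh12, a retinaldehyde reductase, at -0.11, -0.38 and -0.55, and Adh1, an alcohol dehydrogenase that oxidizes retinol, at 0.54, -0.36 and -0.07. Adh1 was dim, with a signal of 11.5 in Control and 17.5 with Miglustat, and its Miglustat ratio was 0.09 at the lowest of the alternatives. Its other probe gave -0.07, -0.41 and 0.18, so the Miglustat difference was not repeated there. Rdh10, which performs the main retinol oxidation of embryos, had signals of 262, 279, 285 and 266 and differed by at most 0.07. Dhrs3, a retinaldehyde reductase that is itself induced by retinoic acid, was singled out after its values were seen. Its signals were 2297, 3230.0, 2479 and 2175, with log2 ratios of 0.43, 0.06 and -0.13 on this probe. The other probe gave 0.51, 0.18 and -0.004. Miglustat was the highest array for Dhrs3, and a link to Cyp26b1 was not tested.

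For uptake, carriage and storage, 5 of the 13 genes with a probe were measured on both arrays in each comparison, none at 2-fold, with median log2 ratios of 0.02, 0.02 and 0.10, the sign for Miglustat turning under normexp. Stra6, the membrane receptor for retinol-binding protein, had signals of 40.2, 50.0, 61.6 and 57.8, lowest in Control, with ratios of 0.25, 0.56 and 0.48. Under normexp these ratios were 0.05, 0.20 and 0.17. Bco2, a carotenoid-cleaving enzyme, was at 0.63, -0.02 and -0.28, from dim signals of 10.7, 17.4, 11.0 and 9.14, and its Miglustat ratio was 0.13 under normexp. Lrat, which stores retinol as esters, and Rbp4, the plasma carrier, stayed at background level on all 4 arrays. Rbp7, a cellular retinol-binding protein, was well above background only with D-PPMP, with a bound of 1.07-fold above Control. That bound, a log2 value of 0.10, lay within the error of 0.510. Lipe, hormone-sensitive lipase, was well above background with each inhibitor but not in Control, where its signal was 4.73. Its bounds above Control were 1.03-fold, 1.30-fold and 1.59-fold with Miglustat, D-PDMP and D-PPMP. As log2 values, the bounds with Miglustat (0.04) and D-PDMP (0.38) lay within their errors of 0.471 and 0.442. The D-PPMP bound (0.66) was past its error of 0.424.

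The RXR partners and the alternative carrier Fabp5 were measured with Ppard, 4 of 5 genes, while Rxrg was not well above background on any array. Their medians were -0.11, -0.07 and -0.06. Rxra was at -0.17, 0.05 and -0.02, but its dimmer probe at 0.11, -0.12 and -0.17. Rxrb was at -0.15, -0.10 and -0.07, and its other probes were below Control too, at -0.05 to -0.34. All 10 coregulators were measured, with medians of 0.04, 0.08 and 0.03 and no gene at 2-fold. The most distant were Nrip1, a corepressor of nuclear receptors, at 0.17, 0.28 and 0.19, and Ep300, an acetyltransferase coactivator, at 0.06, 0.01 and -0.19. The other Ep300 probe gave 0.10, 0.17 and 0.16, of opposite sign with D-PPMP.

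A list of 27 genes known to be induced by retinoic acid in various cells, some of them (Stra6, Dhrs3, Nrip1 and Cyp26c1 among others) also in the lists above, had 18 measured and none at 2-fold. Above Control were 12, 12 and 11 of the 18, beside 6313 of 14171, 7025 of 14154 and 6888 of 14200 of all measured genes. Whether the list leans above that share was not tested. The medians were 0.08, 0.07 and 0.02. The sign for D-PDMP turned under normexp and that for D-PPMP under normexp, quantile and cyclic loess processing. The most distant were Rarres2, the adipokine chemerin, at 0.70, -0.23 and -0.28, and Btg2, an antiproliferative gene, at 0.63, 0.08 and -0.31. Rarres2 was dim, at 18.3 in Control and 31.2 with Miglustat, and its Miglustat ratio was 0.17 at the lowest of the alternatives. The other Btg2 probe gave 0.56, 0.22 and -0.13. Tgm2, tissue transglutaminase, lay at -0.16, 0.01 and 0.03, and Hoxa5, a homeobox gene, at -0.60, -0.08 and 0.01, both named after their values were seen. Hoxa5 was dim, at 31.5 in Control and 21.7 with Miglustat, and its Miglustat ratio was -0.21 under normexp.

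**Figure D5:**
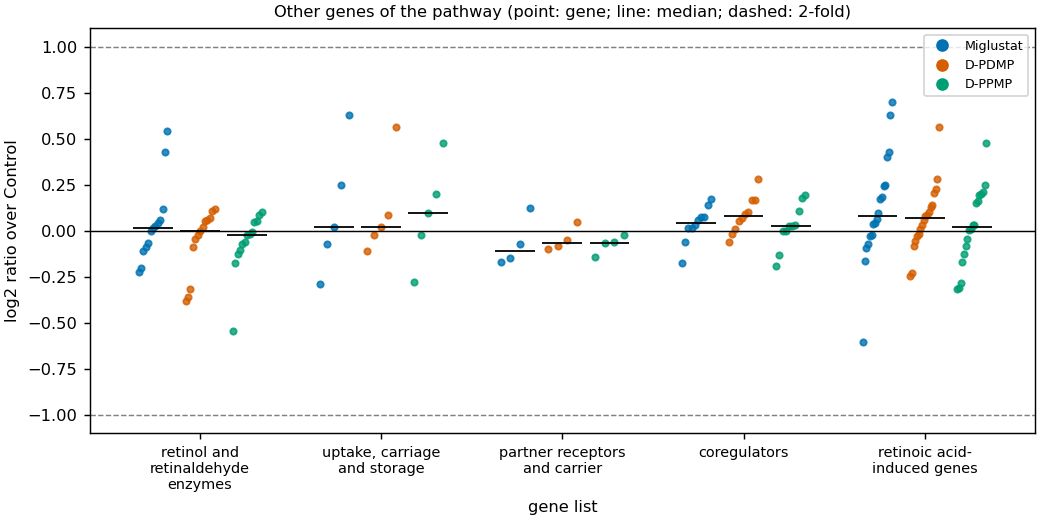
Log2 ratio to Control of every measured gene (point) in 5 lists of other pathway genes, for the 3 inhibitors, with a line at the median of each list and dashed lines at 2-fold. No point reaches a dashed line, and the list medians lie between -0.11 and 0.10.

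The genes whose 3 ratios to Control came closest to those of a retinoic acid gene were sought among genes measured on all 4 arrays above the median level, by Euclidean distance over the 3 log2 ratios. For Cyp26b1 they included, among 7000 candidates, Npr3, the natriuretic peptide clearance receptor, at a distance of 0.162, the glutamate transporter Slc1a6 at 0.195, the matricellular protein Thbs1 at 0.201 and Gask1b at 0.244. Npr3, for example, was at 0.91, 0.13 and -0.10. For Aldh1a3 they were Col5a3, a collagen V chain, at 0.091, Tenm4 at 0.169, Spock2, a matrix proteoglycan, at 0.172, Ndrg1 at 0.191 and Megf6 at 0.192. Col5a3 was at 0.02, -0.53 and -0.59. For Crabp1 the nearest, among 7001 candidates, were Dlc1 at 0.188, the activin antagonist Fst at 0.250, Plpp1 at 0.252, the thrombin receptor Thbd at 0.264 and Rhob, a small GTPase, at 0.284. A distance over 3 ratios from 4 arrays describes these arrays only.

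The arrays were similar in signal scale but not in the share of probes detected. The 75th percentile of signal was 183 to 191 on the 4 arrays, 57.4% of probes were well above background in Control and 60.2% to 62.4% with the inhibitors, and no spot was saturated. Of 12 osteoblast markers, 9 were well above background on all arrays, among them Col1a2 and Sparc, whereas Alpl and Ibsp were on none. Above Control were 5 of the 9 with Miglustat, 4 of 9 for D-PDMP and 2 of 9 for D-PPMP, none at 2-fold. Of all measured genes, 6313 of 14171, 7025 of 14154 and 6888 of 14200 were above Control. The medians of the osteoblast markers were 0.03, 0.00 and -0.13. With Miglustat 1 marker was at least 1.5-fold higher (Sp7, osterix, at 0.74, but 0.24 under normexp) and 1 at least 1.5-fold lower (Spp1, osteopontin, at -0.66), both named after their values were seen. Of 7 chondrocyte markers, 3 were well above background on all arrays, and the summed signal of the 7 was 12441, 16906, 10739 and 10168, nearly all from Col2a1, while Acan, Matn1 and Col10a1 were on none. The Miglustat array was thus also the highest for Col2a1, at a log2 ratio of 0.39; its part in the Cyp26b1 result was not tested. Of 7 markers each, 4 for adipocytes, 3 for macrophages, 3 for epithelium, 1 for muscle and 1 for endothelium were well above background on all arrays. The macrophage markers Ptprc and Adgre1, the muscle regulators Myod1 and Myog and the endothelial Cdh5 and Kdr were on none. Those detected included Csf1r and Itgam, the brightest macrophage markers, Tnnt1 for muscle and Pecam1 for endothelium. The summed signal in Control, over the brightest probe of each gene, was 4794 for the macrophage markers, 37.3 for muscle and 20.0 for endothelium. Other probes were dimmer. The other Itgam probe had signals of 6.37, 5.21, 7.04 and 8.04 and was not well above background with Miglustat. For Csf1r the other probe gave 196, 197, 187 and 195. Krt8, an epithelial keratin, was at -1.06 with D-PDMP and -1.20 with D-PPMP, and at least 2.86-fold lower with Miglustat. Its signal in Control was 12.6, and under normexp the ratios were -0.19 and -0.25, short of 2-fold. Over the measured epithelial markers, 0 of 3, 1 of 4 and 1 of 4 were above Control, with medians of -0.46, -0.07 and -0.24. The brightest epithelial marker, Krt14, was at -0.53, 0.10 and -0.12, and the next, Cdh1, at -0.46, -0.14 and 0.09.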

How the data were processed

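Total RNA of MC3T3-E1 cells was labelled with Cy3 and hybridised to Agilent one-colour arrays, 1 per group, per the labels' protocols. The deposited scanner files come from Agilent Feature Extraction 12.1.1.1, per the submitters' processing notes, and hold, per the file headers, a processed intensity, its error and a background-subtracted intensity for each spot; what else entered the processed intensity is not given in the sources used here. The authors' deposited series matrix holds log2 values. Set against the scanner files, they equal log2 of the processed signal (floored at 1) minus the array's 75th percentile, within 0.02 for at least 99.989% of probes, so scale, centring and direction are settled. Column medians were -4.10, -4.00, -4.00 and -3.89.

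Control and outlier spots were left out, each probe took the mean log2 signal of its spots, and the 75th percentile over 56605 probes was subtracted. Accessions without version were matched to a RefSeq table (GRCm38.p6, names only, since the array design names mm9): 32994 probes gave 22911 genes. The brightest probe stands for a gene. A gene is measured when well above background on both arrays, and called at 2-fold, with no test. A gene detected on only 1 of both arrays gets a bound, against the dim array's lowest well-above-background signal, or the dim probe's own signal where that is higher. The bound does not include the measuring error. The calling procedure was checked on simulated data at a 1.5-fold line, with planted changes of 2-fold or more. That check does not cover genes close to the 2-fold line used here. Alternatives used limma 3.58.1 (R 4.3.3), other scripts Python 3.11.15.

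Genes named are all listed members and, from each pathway or target list, those at 2-fold or else the 2 most distant, those with a bound, from each cell type list the brightest 2 and those at 2-fold, and the 5 nearest genes in pattern of each member past 1.5-fold. Some genes that this rule or the lists hold are not reported here. Members and lists were chosen with earlier results of these data known. Other genes with values (Rdh10, Dhrs3, Tgm2, Hoxa5, Sp7, Spp1) were chosen after their values were seen.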

Additional observations from a re-analysis of the deposited data

How the results depend on the processing

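Over 8 alternatives for scaling, background, spots and probes, the count of genes of the retinoic acid group at least 2-fold from Control stayed at 1 with Miglustat and 0 with D-PDMP and D-PPMP. Without a filter on dim probes it was 2, 1 and 0, adding Rarb (Miglustat) and Aldh1a2 (D-PDMP), and with 1.5-fold in place of 2-fold 2, 0 and 1. Over all genes the counts were 55, 46 and 72. They became 9, 6 and 14 with normexp, 1512, 1756 and 1985 without the filter, and 380, 359 and 489 at 1.5-fold. With the mean of a gene's probes they were 63, 74 and 113. Of the main calls over all genes, 54.5%, 47.8% and 59.7% were higher. Quantile normalization gave 43.5%, 28.0% and 28.2%, and cyclic loess gave 42.9%, 26.9% and 30.4%. The share was 55.6%, 66.7% and 42.9% with normexp, and 65.1%, 70.3% and 73.5% with the mean of probes.

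Of 158 alternative values for the 20 measured ratios of the group, 153 stayed within the scanner software's error of the main value and 5 did not, all for Crabp1 or Rarb. Normexp was run on median spot signals, chosen after seeing the files, since they hold no mean signal; the planned version on mean signals was not run. No paired analysis was possible because each group has 1 array, and for the same reason no replicate was left out. Signal over background limits Cyp26a1, Aldh1a2, Rarb, Aldh1a1 and Crabp1, whose processed signals lay below 50 on all arrays.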
